A study of Homo sapiens with 9 samples.

Results

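Gene expression of R50_OFF, a temozolomide-selected U87MG line that had been taken off the drug, was compared with that of R50, a U87MG line that was kept in the drug. U87MG is a human glioblastoma cell line. The comparison uses 6 of the 9 RNA libraries of the series, 3 of R50_OFF and 3 of R50, and covers the 16456 of 33264 listed genes whose value reached 10 in 3 or more of the 9 libraries. The other 3 libraries are of the untreated parent line; they enter no contrast, and their values are given as a level to read the others against.

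R50_OFF and R50 were both derived from the parent line by long growth in 50 µM temozolomide (TMZ). R50_OFF was freed from the drug after 2 months, R50 went on growing in 50 µM TMZ, and the parent line is labelled as the control. The series describes both resistant lines as clonal, so each condition is represented by 1 line, and the presence of the drug, the time since selection and the identity of the clone cannot be told apart. Nothing in the labels says that the 3 libraries of a line came from separate cultures, so the p-values below measure only the spread between these libraries, which may be technical.

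Temozolomide is an oral alkylating drug used against glioblastoma. It methylates DNA bases, of which O6-methylguanine is the most toxic: if the methyl group is not removed by the repair protein MGMT, mismatch repair acts on the resulting mispairs at each round of replication, and cells arrest in G2 or die. Known routes to resistance in glioma cells include MGMT activity, loss of mismatch repair, and tolerance of damage through checkpoint and repair pathways. MGMT was not analysed here.

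The deposited values are a normalized signal per kilobase of median transcript length, so levels can be compared between genes. Once each library was divided by a factor of its own, the values of each gene were whole multiples of a gene-specific step. These multiples trace back to 28.7 to 35.8 M reads (M, 10 to the power 6) per R50_OFF library and 29.58 to 31.38 M per R50 library. R50_OFF libraries had 23125 to 23803 genes above 0, and R50 libraries had 24632 to 24892. The mesenchymal markers VIM and CD44 were among the strong signals in all libraries, whereas the astrocyte markers GFAP and S100B were at or near 0. Of the markers listed with VIM and CD44, FN1 read 5854 or more and CHI3L1 626 or more, but NES was low, at 18.8 to 70.4. The astrocyte marker ALDH1L1 read 0 to 1.9 in R50_OFF and R50 and 29.9 to 46.3 in the parent line. Of 21 markers of other cell types, 16 were listed; their summed level was 605 to 625 in R50_OFF and 488 to 535 in R50, most of it from SYP, SNAP25 and PECAM1, and ALB was at 0 in all 6 libraries. In such bulk samples, fewer cells of a kind and less RNA per cell cannot be told apart. R50 replicate 2 differed most from its own group: its median absolute log2 difference was 0.168 from replicate 1 and 0.194 from replicate 3, against 0.108 between replicates 1 and 3, and 0.116 to 0.123 between R50_OFF libraries.

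The drug-selected lines differed over much of the transcriptome. With limma on log2(value + 1) and Benjamini-Hochberg adjusted p under 0.05, 4965 genes were higher in R50_OFF than in R50 (30.2% of those tested) and 4820 were lower (29.3%). These 59.5% are the background against which every count of called genes below should be read. Most differences were modest, with a median absolute log2 change of 0.571 among called genes, whereas 1243 genes (7.55%) were at least 2-fold higher in R50_OFF and 1510 (9.18%) at least 2-fold lower. A change of at least 4-fold was reached by 448 genes upward (2.72%) and 609 downward (3.7%). The libraries of the lines did not overlap in 5241 genes that were higher (31.8%) and 5189 that were lower (31.5%). Falls of at least 2-fold leaned towards long non-coding RNAs: 219 of 2271 tested (9.64%) were at least 2-fold higher in R50_OFF and 493 (21.7%) at least 2-fold lower, against 922 (7.31%) and 904 (7.16%) of 12620 protein-coding genes. The filter bears on this: a weak gene present in R50 alone passes it only through the libraries where it is high. At a minimum value of 50, the genes of any kind changed at least 2-fold numbered 786 higher and 784 lower, and the part of the filter in the lncRNA share was not tested. Log2 changes throughout are differences of log2(value + 1), and for weakly expressed genes they come out smaller than the true ratio.

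**Figure D1:**
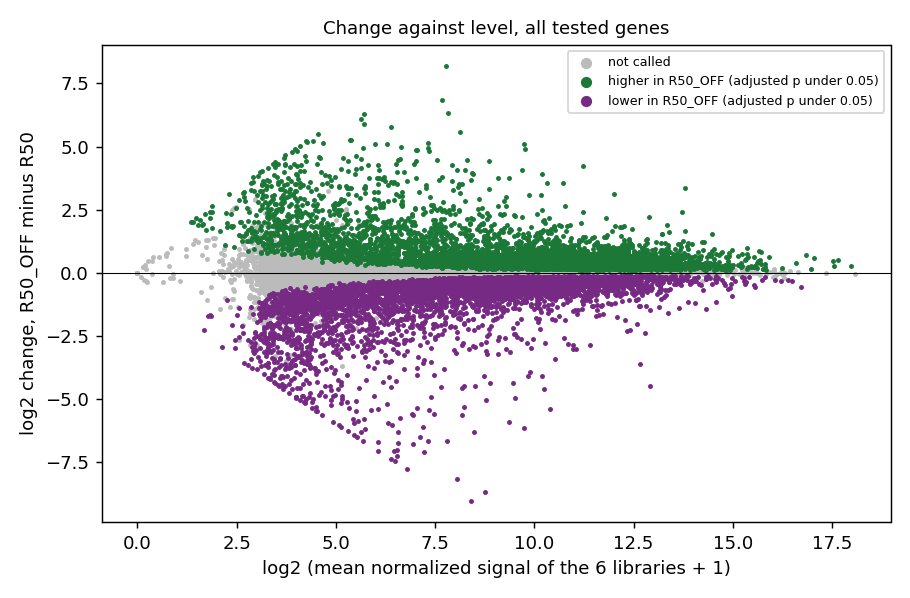
Log2 change of R50_OFF minus R50 (vertical axis) against the log2 mean normalized signal of the 6 libraries plus 1 (horizontal axis), with 1 point per tested gene, green for higher and purple for lower in R50_OFF at an adjusted p under 0.05 and grey for the rest. The cloud is centred near 0 (median -0.005), and changes of both signs occur at all levels, with 4965 green and 4820 purple points.

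The largest rises, among genes past the threshold that were at or above the median level of tested genes in the higher line and did not overlap between lines, were led by ADARB2, a brain-enriched member of the RNA-editing deaminase family. ADARB2 read 428, 419 and 458 in the 3 R50_OFF libraries, against 2.42, 0 and 0 in R50 and 0 in all 3 parent libraries. Its log2 change of 8.18 ± 0.47 (SE, limma adjusted p = 1.52e-07) was the largest upward, and its signal was all but limited to the released line among these 9 libraries. ADARB2 thus passed the filter on low values only through R50_OFF and could only be called higher. CPVL, a serine carboxypeptidase known from macrophages, read 368, 461 and 380 in R50_OFF, against 2.97, 0 and 9.4 in R50, with 22.3 to 27.1 in the parent line. CACNG7, a subunit that regulates calcium channels and AMPA receptors, read 472, 479 and 382 in R50_OFF, against 5.63, 3.42 and 4.76 in R50, while parent libraries had 310 to 326. CPVL rose by a log2 of 6.86 ± 0.63 and CACNG7 by 6.33 ± 0.16, and in both the lowest R50_OFF library lay far above the highest R50 library. ROBO2, an axon guidance receptor for SLIT proteins, read 538, 565 and 537 in R50_OFF and 10.4, 9.17 and 12.4 in R50, a log2 change of 5.56 ± 0.13. MAGEB2, a cancer-testis antigen of the X chromosome, read 1645, 1639 and 1731 in R50_OFF and 46.8, 35.1 and 68.9 in R50, with 10.5 to 13.4 in the parent line. Both genes were thus higher in every R50_OFF library than in any R50 or parent library.

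The rest of the 12 largest rises were GABRG3-AS1 (4.92), the adhesion molecule ICAM5 (4.48), the secreted protease PRSS12 (4.46), the ribosomal protein paralog RPL39L (4.43), MAGEA6 (4.28), the inflammatory cytokine IL1B (4.23) and the reticulon RTN1 (4.09), where the numbers are log2 changes. Several of these were already expressed in the parent line. RPL39L read 869, 913 and 880 in R50_OFF and 42, 36.1 and 43 in R50, against 698 to 815 in parent libraries. MAGEA6 had a like pattern, with 432 to 498 in R50_OFF, 21.2 to 25.1 in R50 and 426 to 490 in the parent line, so R50 was the line that stood low in both genes. Reads of MAGE genes can be shared between near-identical copies, and GABRG3-AS1 is an antisense gene in data whose counting strand is not given, so these values are uncertain, as are those of the other antisense genes named.

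The largest fall was that of RARRES2, which encodes the secreted chemoattractant chemerin and is known as a retinoid-responsive gene. RARRES2 read 0, 1.26 and 0 in R50_OFF, against 672, 647 and 719 in R50, with 1.57 to 4.11 in the parent line. The log2 change was -9.02 ± 0.38 (limma adjusted p = 1.631e-08), and R50 alone held a substantial signal. KRT81, a hair keratin, read 1.81, 1.01 and 0.632 in R50_OFF and 906, 755 and 930 in R50. LIMCH1, a protein that activates non-muscle myosin, read 1.2, 1.25 and 0.314 in R50_OFF and 487, 567 and 539 in R50. KRT81 fell by 8.68 and LIMCH1 fell by 8.15 on the log2 scale, and parent libraries were under 10 in both. RARRES2, KRT81 and LIMCH1 passed the filter on low values only through R50, where they were high, and so could only be called lower. The same holds for ELN and COL3A1 below. KRT81 shares near-identical sequence with other hair keratins, among them KRT86 (log2 change -6.04), so their reads may be split between them. TIE1, an endothelial receptor tyrosine kinase, read 8.12, 5.41 and 10.2 in R50_OFF and 651, 639 and 804 in R50. APOE, the lipid carrier secreted by astrocytes and macrophages, read 25.2, 16 and 27.6 in R50_OFF and 1634, 1597 and 1792 in R50, with 7.61 to 14.4 in the parent line. Of the endothelial markers, CDH5 read 0.536, 0 and 0 in R50_OFF and 17.8, 10.7 and 27.9 in R50, VWF overlapped between the lines and PECAM1 fell by 0.85; their part in the TIE1 value was not tested. Neither TIE1 nor APOE overlapped, with log2 changes of -6.32 ± 0.43 for TIE1 and -6.16 ± 0.24 for APOE. The others of the 12 largest falls were LINC03061, TMEM132D-AS1, the tubulin gene TUBA3C, the PDZ protein PDZD2, the carboxylesterase CES1, LINC02167 and EBI3, the shared subunit of interleukins 27 and 35, with log2 changes between -6.67 (LINC03061) and -4.96 (EBI3).

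**Figure D2:**
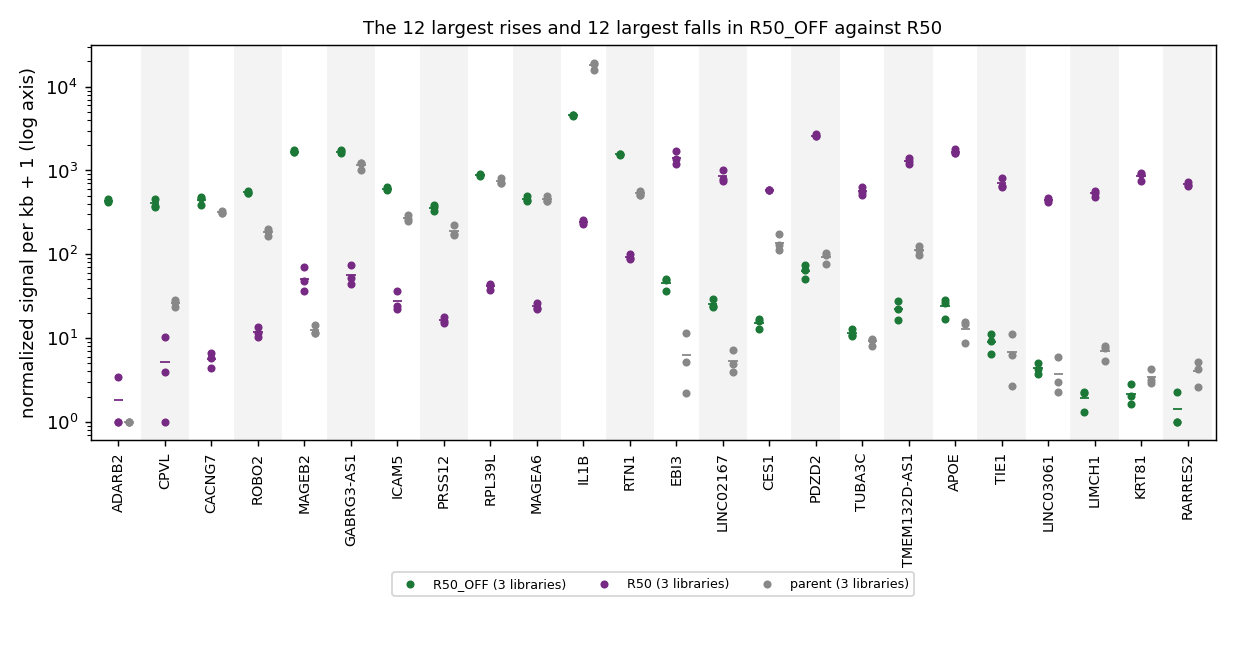
Normalized signal per kilobase plus 1 (log axis) of the 12 genes with the largest rises and the 12 with the largest falls, in the 3 libraries each of R50_OFF (green), R50 (purple) and parent (grey), with short bars for the group means. From ADARB2 to RTN1 all R50_OFF points lie above all R50 points, and from EBI3 to RARRES2 all lie below, with parent values on the R50_OFF side in most of the falls.

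Another contrast came from genes listed at 0 in all 3 libraries of one line and at 10 or more in all 3 of the other. Among all 33264 listed genes, there were 13 such genes present in R50_OFF, of which 7 were also at 0 in all parent libraries. There were 37 present in R50, of which 18 were at 0 in the parent libraries. Values are per kilobase, so in very short genes among these, such as MIR4449 and SNORD94, a value of 10 can rest on very few reads. R50 libraries also had more genes above 0, as given above. GABRA5, a GABA-A receptor subunit, read 41.5, 51.8 and 40.1 in R50_OFF and was listed at 0 in R50 and in the parent line. ZNF140, a KRAB zinc finger gene, had the same pattern at 35.6, 31.1 and 41.8, as did the long non-coding RNAs PANTR1 and LINC02713. SPRY4-AS1 was listed at 0 in R50 but read 23.1, 27.2 and 38.3 in R50_OFF and 22.6 to 56.6 in the parent line. On the other side, GZMB, the granule protease granzyme B of cytotoxic lymphocytes, was listed at 0 in R50_OFF and in the parent line and read 250, 189 and 218 in R50. LPL, the lipase that releases fatty acids from lipoproteins, was listed at 0 in R50_OFF and read 161, 182 and 186 in R50. SOST, the secreted Wnt antagonist sclerostin, was at 0 in R50_OFF and at 78.8, 112 and 82.8 in R50, and the lncRNA UCA1 was at 0 in R50_OFF and at 138, 123 and 134 in R50. The lymphocyte marker PTPRC read at most 1.49 in these 6 libraries and CD3E at most 2.22, so the GZMB signal was present where defining leukocyte markers were at or near 0.

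Genes of DNA replication stood higher in the released line. Of 24 tested genes of S phase and DNA synthesis, 20 were higher in R50_OFF and 0 lower, against 30.2% and 29.3% of all genes, with a median log2 change of 0.63 against -0.005 over all genes. E2F1, the transcription factor that drives entry into S phase, read 1943, 1847 and 2030 in R50_OFF and 643, 623 and 643 in R50, a log2 change of 1.61 ± 0.05 (limma adjusted p = 2.007e-09). MCM6, a subunit of the replicative helicase, read 10926, 10335 and 10402 in R50_OFF and 4151, 4338 and 3919 in R50, a log2 change of 1.35 ± 0.05. Neither gene overlapped between the lines, and parent libraries stood on the side of R50_OFF, at 1662 to 1705 for E2F1 and 13673 to 13689 for MCM6. RRM2, the subunit of ribonucleotide reductase that makes deoxynucleotides, rose by 1.26, the helicase component GINS2 by 1.20 and the origin licensing factor CDT1 by 1.20. The thymidylate synthase gene TYMS (0.14), the cyclin gene CCNE2 (0.24) and the clamp loader gene RFC3 (0.24) did not pass the test. Set beside the parent line, whose libraries both comparisons share, the 24 genes had a median log2 difference of 0.06 in R50_OFF and -0.6 in R50.

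The sequences just upstream of the replication genes are shown because a motif of E2F factors recurs there. The letters TTTNNCGC, searched on both strands in the 250 bases before the annotated start (overlapping matches on opposite strands each counted), occurred in 12 of the 20 members with a promoter sequence (60%) and in 2078 of all 35116 promoters (5.92%). The E2F1 window lies at chr20:33686386-33686635 on the minus strand and the MCM6 window at chr2:135876444-135876693 on the minus strand (GRCh38.p14, sequences from RefSeq). Both are printed 5′ to 3′ with matches in capitals, 4 in each, adjoining or overlapping matches run together. A match describes these letters only and is not evidence of binding.
E2F1: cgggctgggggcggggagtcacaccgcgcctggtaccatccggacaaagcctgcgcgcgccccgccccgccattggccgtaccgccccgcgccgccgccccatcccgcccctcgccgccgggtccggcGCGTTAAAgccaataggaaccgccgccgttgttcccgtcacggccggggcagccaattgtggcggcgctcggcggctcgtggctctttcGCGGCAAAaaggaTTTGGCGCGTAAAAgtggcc
MCM6: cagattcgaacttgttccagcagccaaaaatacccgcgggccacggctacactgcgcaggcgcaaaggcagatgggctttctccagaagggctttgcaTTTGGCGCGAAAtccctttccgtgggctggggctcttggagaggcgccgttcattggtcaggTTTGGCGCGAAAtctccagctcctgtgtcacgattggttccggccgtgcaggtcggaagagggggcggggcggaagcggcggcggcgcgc

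Genes of mitosis did not move with those of S phase. Of 23 tested, 6 were higher and 7 lower in R50_OFF, with a median log2 change of -0.04. PLK1, a kinase of mitotic entry, rose by 0.55, whereas the topoisomerase TOP2A fell by 0.64, the spindle checkpoint kinase TTK fell by 0.58 and the kinesin KIF20A fell by 0.54. Among D-type cyclins and inhibitors of cyclin-dependent kinases, CCND1 read 24691, 27922 and 27598 in R50_OFF and 11111, 12134 and 10817 in R50 and rose by 1.24. CCND2 moved the other way at low level, with 0, 0 and 3.94 in R50_OFF against 25.3, 17.1 and 26.7 in R50, and RB1, which restrains E2F factors, fell by 0.41.

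Targets of p53 were mostly lower in R50_OFF: of 25 tested, 3 were higher and 20 lower, with a median log2 change of -0.52. CDKN1A (p21), an inhibitor of cyclin-dependent kinases, read 3728, 3563 and 3542 in R50_OFF and 9383, 8472 and 9411 in R50, a log2 change of -1.33 ± 0.05 (limma adjusted p = 6.745e-09). Parent libraries read 4504 to 4598, so all R50_OFF libraries stood under the parent line and all R50 libraries over it. TP53INP1, a stress protein of autophagy and cell death, fell by 1.97, the kinase PLK2 fell by 1.47, the antiproliferative factor BTG2 fell by 1.46 and the mitochondrial reductase FDXR fell by 1.30. MDM2, the ligase that degrades p53, read 2386, 2743 and 2572 in R50_OFF and 3473, 4284 and 3316 in R50 and fell by 0.52. In the BCL2 family, 2 of 13 tested genes were higher and 7 lower in R50_OFF. The lower ones included the death-promoting BH3-only genes BMF (-2.77), HRK (-2.17), BCL2L11 (-1.01), BBC3 (-0.77) and PMAIP1 (-0.74). BMF read 234, 227 and 220 in R50_OFF and 1590, 1469 and 1618 in R50, with 57.3 to 77.6 in the parent line.

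DNA repair genes relevant to alkylation damage moved in both directions. In mismatch repair, 3 of 8 tested genes were higher and 1 lower in R50_OFF. EXO1, the exonuclease that removes the mismatched strand, read 1728, 1577 and 1612 in R50_OFF and 638, 628 and 546 in R50, a log2 change of 1.44 ± 0.07. MSH6 read 1827, 1660 and 1648 in R50_OFF and 977, 1062 and 967 in R50 and rose by 0.77. It lies on chromosome 2, where genes in general stood higher in R50_OFF, as described below. PMS2 read 114, 96.5 and 110 in R50_OFF and 96.4, 102 and 113 in R50 (limma adjusted p = 0.7864), values that overlapped between the lines and did not pass the test.

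Of 13 tested genes of base excision and direct repair, 7 were higher and 3 lower. XRCC1, the scaffold for single-strand break repair, read 2674, 2614 and 2796 in R50_OFF and 1156, 993 and 1221 in R50 and rose by 1.27 ± 0.07, whereas the parent line read 2234 to 2359. MPG, the glycosylase that removes methylated purines, rose by 0.34, and POLB, the gap-filling polymerase, fell by 0.45. In homologous recombination and the Fanconi anemia pathway, 9 of 17 tested genes were higher and 0 lower, among them RAD54L (0.81), XRCC2 (0.73), FANCA (0.64) and BRCA1 (0.58). Checkpoint and translesion genes divided evenly, with 8 higher and 8 lower of 19. The translesion polymerase genes REV3L (-0.92), POLI (-0.80) and POLK (-0.75) fell, whereas the replication checkpoint adaptors CLSPN and ATRIP each rose by 0.59. SLFN11, known for blocking stressed replication forks, read 8.55, 5.7 and 8.96 in R50_OFF and 7.65, 10.8 and 3.23 in R50, against 956 to 1054 in the parent line. Its values overlapped between the drug-selected lines (adjusted p = 0.6497).

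Cytokines and chemokines controlled by NF-kB were higher in the released line. Of 16 tested, 12 were higher and 2 lower, with a median log2 change of 1.52. IL1B read 4466, 4654 and 4532 in R50_OFF and 257, 227 and 243 in R50, a log2 change of 4.23 ± 0.07 (limma adjusted p = 5.943e-11), with 16029 to 19401 in the parent line. CXCL8, the neutrophil chemoattractant interleukin 8, read 1941, 2310 and 2322 in R50_OFF and 134, 154 and 148 in R50, a log2 change of 3.90 ± 0.12. CSF3, the granulocyte growth factor, read 954, 1126 and 1266 in R50_OFF and 135, 120 and 158 in R50, a log2 change of 3.01 ± 0.18. In all of these genes R50 was low beside both R50_OFF and the parent line, with no overlap between R50_OFF and R50. IL1B and CSF3 were also lower in every R50_OFF library than in any parent library. The 16 genes had a median log2 difference from the parent line of -0.96 in R50_OFF and -2.49 in R50, in comparisons that share the parent libraries. PTGS2, the inducible cyclooxygenase, rose by 1.92, and the chemokine CCL20 rose by 1.89 at a low level. CSF1 and IL24 fell, whereas CCL2 and IL11 did not pass the test. Subunits and feedback inhibitors of NF-kB itself included 9 higher and 1 lower of 16 tested, with NFKBIZ at 1.65, TNFAIP3 at 1.08, TNIP1 at 1.00, BIRC3 at 0.75 and RELB at 0.70.

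The upstream sequence of CXCL8 is shown since the kappaB-type letters lie close to its start. The motif GGANTTTCC, searched on both strands in the same 250 bases, occurred in 5 of the 12 cytokine genes with a promoter sequence (41.7%), which were IL6, CXCL8, CXCL1, CXCL2 and CXCL3, and in 510 of 35116 promoters (1.45%). Its last letters, TTTCC, can also begin an E2F-type match. The CXCL8 window is chr4:73740319-73740568 on the plus strand (GRCh38.p14, RefSeq), with its match in capitals. No match was found for IL1B in this window.
CXCL8: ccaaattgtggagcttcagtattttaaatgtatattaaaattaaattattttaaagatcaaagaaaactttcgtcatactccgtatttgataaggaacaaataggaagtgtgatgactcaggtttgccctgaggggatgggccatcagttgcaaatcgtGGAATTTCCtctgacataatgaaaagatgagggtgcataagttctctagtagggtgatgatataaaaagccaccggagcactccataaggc

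Growth factor and ERK pathway genes also stood higher. Of 12 tested genes of the EGF receptor family and its ligands, 9 were higher in R50_OFF and 1 lower. EREG, the ligand epiregulin, read 5075, 6235 and 6111 in R50_OFF and 1128, 1522 and 1222 in R50 and rose by 2.17 ± 0.11. The ligands EPGN (1.72), NRG2 (1.37) and TGFA (1.18) rose too, and the receptor EGFR rose by 0.66, whereas ERBB3 fell by 1.04. Among HGF, PDGF, FGF and VEGF genes, 12 of 21 tested were higher and 2 lower. HGF, the ligand of the receptor MET, read 981, 1076 and 975 in R50_OFF and 68, 76.7 and 75 in R50, a log2 change of 3.77 ± 0.07, against 4496 to 5131 in the parent line. MET itself rose by 0.63. The receptor genes KDR (3.58) and PDGFRA (2.47) rose at low levels, FGF5 rose by 1.92, and PDGFB fell by 2.06. Among AP-1, EGR and ERK feedback genes, which report on MAP kinase output, 14 of 26 were higher and 4 lower. SPRY4, an inhibitor of receptor signalling, read 794, 732 and 740 in R50_OFF and 129, 139 and 166 in R50, the phosphatase gene DUSP6 read 2162, 2334 and 2237 in R50_OFF and 570, 605 and 706 in R50, and neither overlapped.

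Chromosome membership touches several of these lists. Among nuclear chromosomes, the median change was above 0.2 in size on 2, 4, 6, 7 and 21, and 8 of the 16 cytokine genes, 6 of the 12 EGF genes and 13 of the 21 HGF, PDGF, FGF and VEGF genes lie on them. On the other chromosomes, 4 of 8 cytokine genes were higher and 2 lower with a median of 0.71, 4 of 6 EGF genes were higher and 1 lower with a median of 0.30, and 3 of 8 of the HGF group were higher and 1 lower with a median of 0.11. Replication genes numbered 16 higher and 0 lower of 20 there (median 0.52), and p53 targets 3 higher and 16 lower of 21 (median -0.48). The other chromosomes also hold shifted stretches, given below, and what part the chromosomes have in these differences was not tested.

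**Figure D3:**
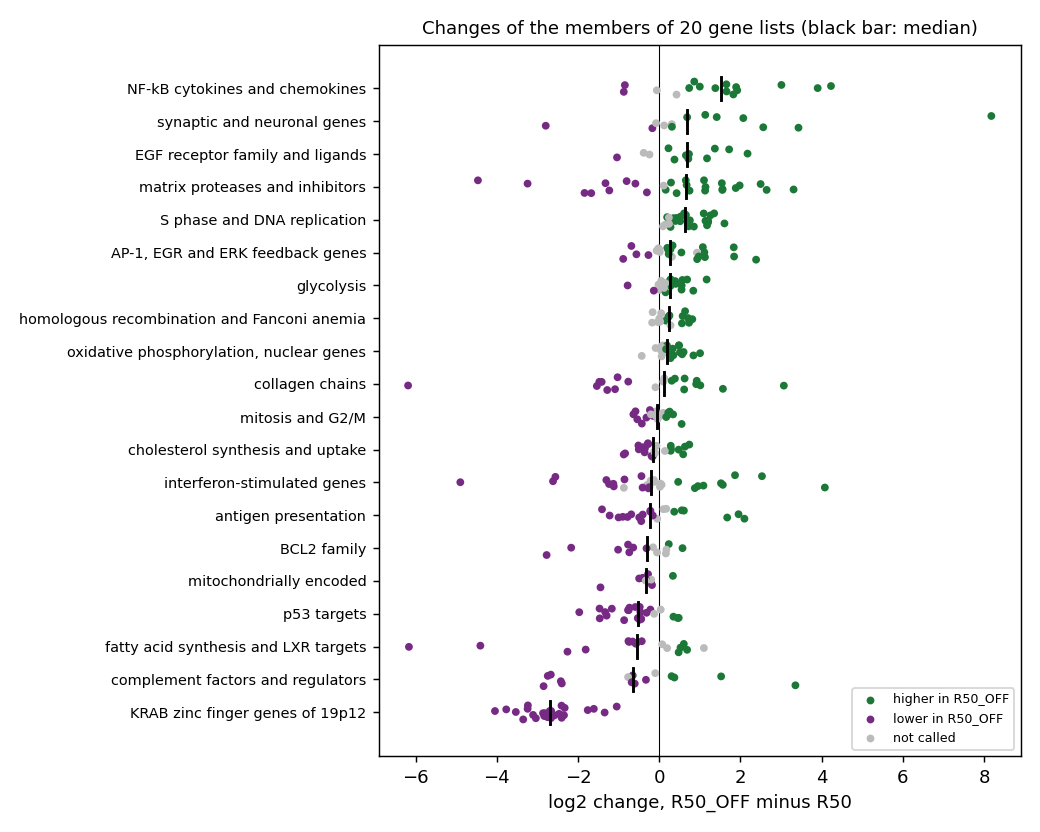
Log2 change of R50_OFF minus R50 (horizontal axis) for the tested members of 20 of the 53 gene lists, chosen for display after their values were seen, with 1 point per gene (green higher, purple lower, grey not called) and a black bar at each list's median. Medians run from -2.68 for KRAB zinc finger genes of 19p12 to 1.52 for NF-kB cytokines, and most lists hold genes of both signs.

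Interferon-stimulated genes were split rather than shifted. Of 29 tested, 9 were higher in R50_OFF and 12 lower, near the shares of all genes, with a median log2 change of -0.21. OAS3, an antiviral sensor of double-stranded RNA, read 518, 525 and 457 in R50_OFF and 28.8, 17.9 and 45.1 in R50, a log2 change of 4.08 ± 0.25. OAS1 rose by 2.53. In contrast IFITM1, a membrane protein that blocks virus entry, read 11.9, 12.3 and 6.21 in R50_OFF and 326, 255 and 390 in R50, a log2 change of -4.90 ± 0.30, and was listed at 0 in the parent line. IFI27 fell by 2.62 and BST2, the virus tether tetherin, fell by 2.56. Antigen presentation genes also moved in both directions. HLA-B, a class I chain, read 6964, 6933 and 7000 in R50_OFF and 19372, 17177 and 19020 in R50 and fell by 1.41 ± 0.05, and B2M, its invariant partner, fell by 0.44. The class II chain HLA-DRA read 2105, 1847 and 1942 in R50_OFF and 432, 441 and 503 in R50 and rose by 2.10 ± 0.07. Its master regulator CIITA rose by 1.95 and the invariant chain gene CD74 rose by 1.67. Of the 21 tested members, 6 were higher and 12 lower, and 12 of the 21 lie on chromosomes of shifted median, chiefly the HLA genes of chromosome 6. Class I genes are near-identical, so reads may be split between them. CD274, which encodes the immune checkpoint ligand PD-L1, rose by 0.51, and the NKG2D ligand ULBP1 fell by 0.99.

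Collagen chains gave 9 higher and 8 lower of 20, and matrix glycoproteins and proteoglycans 15 higher and 14 lower of 30, balanced in sign, beside 59.5% of all genes called in either direction. ELN, the elastic fibre protein elastin, read 1.41, 1.18 and 0 in R50_OFF and 199, 160 and 198 in R50, a log2 change of -6.74 ± 0.58. COL3A1, a fibrillar collagen, read 0, 1.93 and 0 in R50_OFF and 91.3, 105 and 114 in R50, a log2 change of -6.18 ± 0.53. The fibrillar collagens COL1A1 and COL1A2 had log2 changes of -1.42 and -1.48, whereas the short-chain collagen COL8A1 read 1526, 1736 and 1716 in R50_OFF and 173, 217 and 202 in R50 and rose by 3.07 ± 0.09. LUM, the collagen-binding proteoglycan lumican, read 140, 121 and 105 in R50_OFF and 0.935, 3.79 and 3.95 in R50, a log2 change of 5.09 ± 0.32. SPP1, the secreted integrin ligand osteopontin, read 7352, 7675 and 7285 in R50_OFF and 805, 939 and 814 in R50, a log2 change of 3.13 ± 0.06. ELN, COL3A1, COL8A1, LUM and SPP1 did not overlap between the lines, and the parent line was low where R50_OFF was low and high where it was high.

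Matrix proteases and their inhibitors counted 17 higher and 9 lower of 27, with a median log2 change of 0.65. Outside the chromosomes of shifted median, 13 were higher and 9 lower of 23, with a median of 0.29. The membrane protease gene ADAM8 read 862, 836 and 811 in R50_OFF and 93, 75.8 and 82.6 in R50 and rose by 3.31 ± 0.08, while the secreted inhibitor SLPI read 36.5, 24.6 and 31 in R50_OFF and 764, 645 and 667 in R50 and fell by 4.46. Integrins were 7 higher and 5 lower of 15: ITGA4 (3.86, at low level), ITGA6 (2.13), ITGA2 (1.71) and the fibronectin receptor subunit ITGA5 (0.74) rose, whereas the laminin-binding ITGA7 fell by 1.88. YAP and TEAD factors and their targets were 7 higher and 12 lower of 21, with TGFB2 at -2.63 and CCN1 at -1.19. Actin, membrane linker and contractility genes were 6 higher and 9 lower of 23: ACTA2, smooth muscle actin, read 484, 453 and 407 in R50_OFF and 1757, 1576 and 1837 in R50 (log2 change -1.94), CNN1 fell by 2.10 and MYL9 fell by 1.15. In TGF-beta and BMP signalling, 6 genes were higher and 10 lower of 22, and the BMP antagonist GREM1 fell by 2.01. MSN, which links actin to the membrane, read 406, 460 and 502 in R50_OFF and 334, 394 and 476 in R50, against 57196 to 58401 in the parent line, and did not differ past the threshold between the drug-selected lines (adjusted p = 0.1611).

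Synaptic and neuronal genes were more often higher in R50_OFF, with 8 higher and 2 lower of 13 tested. Besides ADARB2, GAP43, a protein of growing axons, read 54.2, 50 and 54.4 in R50_OFF and 4.13, 4.71 and 3.27 in R50 and rose by 3.43 ± 0.19. SNAP25, a SNARE protein of vesicle release, read 230, 259 and 266 in R50_OFF and 42.5, 43.1 and 39.6 in R50 and rose by 2.56. SCG2, a granin of secretory vesicles, went the other way, with 312, 300 and 317 in R50_OFF and 2061, 2121 and 2283 in R50. These 13 are the ones of 28 listed genes that passed the filter on low values. Genes such as ADARB2 and SYN1 passed only through R50_OFF, where they were high, and so had to differ. Without any 1 R50_OFF library 11 genes were tested, and their median log2 change was 0.28 to 0.41, against 0.69 with all libraries.

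Cell adhesion and guidance genes held large differences of both signs, in counts to be read against the 59.5% of all genes called. Neural adhesion genes and teneurins were 9 higher and 6 lower of 18. TENM4 read 509, 542 and 449 in R50_OFF and 68.6, 47.6 and 52.5 in R50 (log2 change 3.14), whereas its paralog TENM2 read 1199, 963 and 826 in R50_OFF and 12190, 11895 and 11883 in R50 (log2 change -3.60). The teneurins are transmembrane proteins that bind latrophilins across cell contacts, and the parent line, at 1335 to 1489 for TENM4 and 13.2 to 22.6 for TENM2, had the first and lacked most of the second. Axon guidance genes were 11 higher and 10 lower of 31, with rises in ROBO2 and in the netrin receptor DCC (2.94) and falls in the semaphorin receptor PLXNB1 (-3.02) and the ephrin EFNA1 (-3.01). Semaphorin SEMA3F was listed at 0 in R50_OFF and read 24.8, 33.1 and 48.1 in R50. Cadherins and protocadherins were 7 higher and 10 lower of 19, with PCDH7 at 2.86 and CDH3 at -2.82. Ion channel genes were 10 higher and 5 lower of 18, among them KCNH1 (2.81) and SCN9A (2.28) upward and KCNJ2 (-3.52) and the water channel AQP3 (-3.03) downward.

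Energy metabolism showed small, broad differences. Nuclear-encoded subunits of the respiratory chain counted 16 higher and 0 lower of 24, with a median log2 change of 0.20, and glycolytic genes 12 higher and 2 lower of 19, with a median of 0.28. Under quantile scaling these medians were smaller, at 0.06 for the respiratory chain and 0.12 for glycolysis. CYCS, cytochrome c, rose by 1.01, COX5A by 0.84 and the lactate exporter SLC16A3 by 0.84. The 13 transcripts encoded by mitochondrial DNA differed in the other direction, with 1 higher and 10 lower and a median of -0.33. Lipid genes were more often lower: in fatty acid synthesis and LXR targets 4 were higher and 10 lower of 17, including APOE, the scavenger receptor CD36 (-4.40), APOC1 (-2.26) and the LXR-induced ubiquitin ligase MYLIP (-1.81), and in cholesterol synthesis 7 were higher and 12 lower of 23. Hypoxia response genes were 13 higher and 7 lower of 25, with ANGPTL4 at 1.11 and EGLN3 at -1.60.

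Stress and transport genes were mixed. ATF4 targets were 11 higher and 10 lower of 24, with the amino acid transporter gene SLC7A5 at 1.33 and the stress factor NUPR1 at -1.42, and NRF2 targets 9 higher and 9 lower of 23. The cystine transporter gene SLC7A11 rose by 1.01. Genes of the unfolded protein response were 10 higher and 3 lower of 20. Among ABC transporters, 4 were higher and 10 lower of 21, and ABCG2, a drug efflux pump, read 25.6, 20.3 and 25.8 in R50_OFF and 0.221, 0 and 0 in R50, against 58.5 to 71.7 in the parent line. ABCB1 did not pass the filter on low values. Complement genes were 4 higher and 9 lower of 15: C3, the central component, read 661, 678 and 655 in R50_OFF and 4487, 4743 and 5156 in R50 (log2 change -2.85 ± 0.13), without overlap.

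Markers of glial, stem and progenitor state were 7 higher and 5 lower of 16 tested, out of 27 listed. Their median log2 change was -0.1, with large changes of both signs. CHI3L1, a secreted marker of mesenchymal glioblastoma, read 672, 697 and 626 in R50_OFF and 14422, 14586 and 15444 in R50, against 5014 to 5149 in the parent line. Its log2 change of -4.48 ± 0.05 had a limma adjusted p of 2.796e-12. ALDH1A3, which makes retinoic acid and marks mesenchymal glioma stem cells, read 24991, 26270 and 25893 in R50_OFF and 2468, 2717 and 2415 in R50, against 50863 to 53048 in the parent line. This rise of 3.34 ± 0.05 ran opposite to CHI3L1, and the lines did not overlap in either gene. CRABP2, which carries retinoic acid to the nucleus, fell by 1.78. OLIG2, a factor of oligodendrocyte progenitors, rose by 2.10, NES fell by 1.57 at a low level, and SOX2 read 23.1, 23 and 28.1 in R50_OFF and 36.6, 35.9 and 46 in R50 (adjusted p = 0.07116). HOX genes, which are largely silent in the normal forebrain, were 8 higher and 1 lower of 18, led by HOXB7 (1.76) and HOXA3 (1.46), and 9 of the 18 lie on the shifted chromosomes. Cancer-testis genes were 7 higher and 4 lower of 17, with GAGE1 at 4.87 and SSX1 at -4.27, both subject to shared reads among copies. Of the silencing machinery, 9 of 24 were higher and 8 lower: the methyltransferase DNMT3A rose by 1.45, its maintenance cofactor UHRF1 by 0.97 and TRIM28, the corepressor that KRAB zinc finger proteins recruit, by 0.80. Common reference genes were not exempt, with 7 higher and 3 lower of 14, including ACTB at 0.47 and B2M at -0.44.

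A block of KRAB zinc finger genes in band p12 of chromosome 19 was lower in R50_OFF throughout. These genes encode DNA-binding repressors, many of which are known to recognise transposable elements, and arose by tandem duplication. Of 30 listed, 26 were tested and all 26 were lower, with log2 changes between -4.04 (ZNF737) and -1.05 (ZNF726) and a median of -2.68. Genes such as ZNF66, ZNF98 and ZNF728 passed the filter only through R50, where they were high, and so could only be called lower. Others, such as ZNF85, ZNF430 and ZNF431, reached the filter's value of 10 in every library of all lines. ZNF737 read 12.8, 15.2 and 36.3 in R50_OFF and 308, 358 and 334 in R50, with at most 1.99 in the parent line. ZNF91, a repressor of SVA elements named here after its values were seen, read 78.6, 108 and 71.6 in R50_OFF and 749, 875 and 796 in R50, against 0 to 3.95 in the parent line, a log2 change of -3.23. ZNF43 read 19.7, 22.3 and 15.7 in R50_OFF and 167, 231 and 174 in R50. On the median, R50_OFF stood between the other lines in these genes: the median log2 difference of the 26 genes from the parent line was 2.97 in R50_OFF and 5.5 in R50, in comparisons that share the parent libraries. Because the genes are similar to each other, reads may be split between them, and single values are uncertain.

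Other genes of the region were also mostly lower, chiefly lncRNAs and pseudogenes. Of 58 tested genes between 20 and 30 Mb of chromosome 19, zinc finger genes of the list included, 47 were lower in R50_OFF (81%) and 4 higher, with a median log2 change of -2.44, against a median of -0.02 for the 1033 tested genes elsewhere on the chromosome. The 32 of them that are not in the list had 21 lower and 4 higher, with a median of -1.51. Some of the 58, such as IPO5P1, ZNF98 and the lncRNA ENSG00000284428, passed the filter only through R50 and so could only be called lower. The filter's part in the counts and medians of the window was not tested. The lncRNA ENSG00000267924, in the same window, read 0.905, 2.64 and 0.474 in R50_OFF and 269, 283 and 336 in R50 and was listed at 0 in the parent line. The exceptions, looked up after the window was seen, included CCNE1, the cyclin of S phase entry, which lies towards the long-arm end of the window and rose by 0.95, and UQCRFS1, which rose by 0.17. Of the protein-coding genes near CCNE1, PLEKHF1 (-0.57) and URI1 (-0.22) were lower, and POP4 and C19orf12 did not pass the test. Of ZNF genes not in the list, some of which lie within or beside the block, 100 of 171 on chromosome 19 were lower and 15 higher (median -0.47), and 86 of 201 on other chromosomes were lower and 33 higher (median -0.18).

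**Figure D4:**
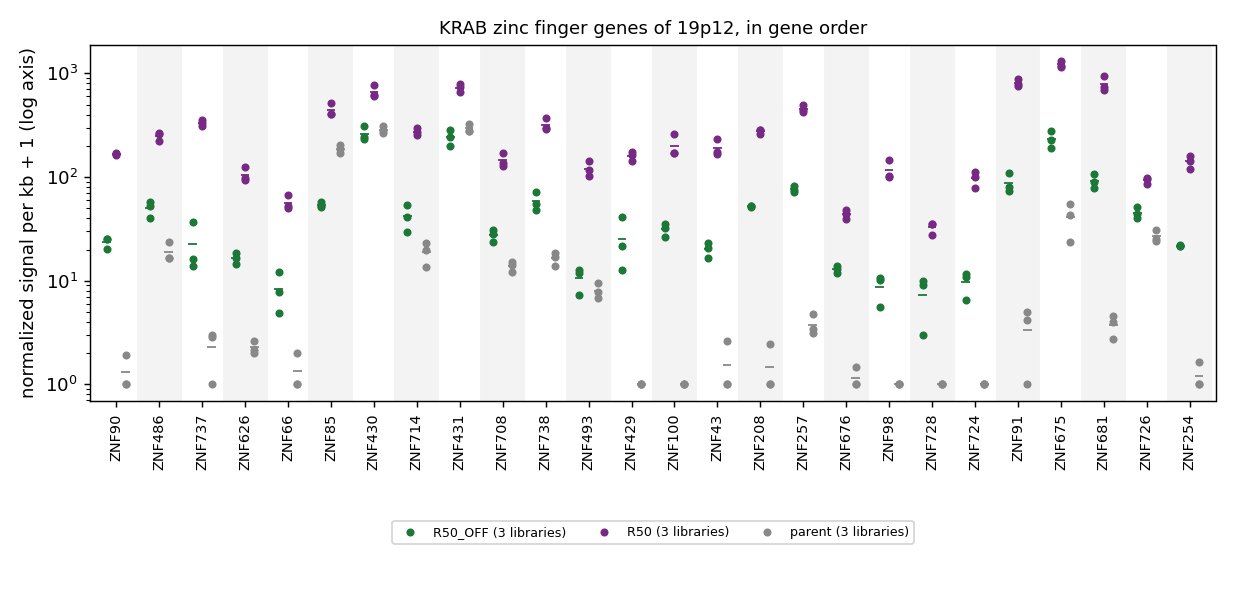
Normalized signal per kilobase plus 1 (log axis) of the 26 tested KRAB zinc finger genes of 19p12 in gene order, in the 3 libraries each of R50_OFF (green), R50 (purple) and parent (grey), with short bars for group means. Every gene has its R50_OFF points below its R50 points, and in most genes the parent points lie lowest.

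Upstream sequences of ZNF737 and ZNF43 are printed because they hold a run of letters that recurs in the family. The run GTCCAATCAGGC was the 12-letter run shared by the most members, found by comparing them, and occurred on either strand within 120 bases of the start in 15 of the 22 members with a sequence (68.2%) and in 30 of all 35116 promoters (0.0854%). Since the run was picked from these promoters, its share among them is a description of relatedness. The windows are chr19:20565782-20565901 for ZNF737 and chr19:21836183-21836302 for ZNF43, both on the minus strand (GRCh38.p14, RefSeq), with the shared run in capitals.
ZNF737: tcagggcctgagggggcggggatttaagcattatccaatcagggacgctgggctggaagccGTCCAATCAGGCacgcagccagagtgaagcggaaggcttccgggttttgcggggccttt
ZNF43: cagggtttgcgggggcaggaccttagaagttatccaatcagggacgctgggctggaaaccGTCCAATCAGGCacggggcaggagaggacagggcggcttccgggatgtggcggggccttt

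Differences were not spread evenly over the chromosomes. On chromosome 2, 578 of 1114 tested genes (51.9%) were higher in R50_OFF and 125 (11.2%) lower, with a median log2 change of 0.32. Chromosomes 4, 21 and 7 were similar, with medians of 0.31, 0.28 and 0.26. Chromosome 6 ran the other way, with 123 genes (14.7%) higher and 412 (49.2%) lower and a median of -0.31. Its shift was concentrated in genes that start before 50 Mb, of which 282 of 446 (63.2%) were lower with a median of -0.52, against a median of -0.10 from 50 Mb on. That stretch holds the class I HLA genes and CDKN1A, described above as lower, and also HLA-DRA, which was higher. The remaining autosomes and X had medians between -0.12 and 0.07. Single windows of 10 Mb on them were shifted as well, in either direction. Medians were 0.26 at 0 to 10 Mb and 0.33 at 10 to 20 Mb of chromosome 5, and -0.37 at 80 to 90 Mb of chromosome 10. Set beside the parent line, whose libraries both comparisons share, R50_OFF had median log2 differences of -0.05 on chromosome 2, -0.01 on 4, -0.04 on 6, 0.06 on 7 and 0.04 on 21, whereas R50 had -0.34, -0.27, 0.32, -0.2 and -0.34 on the same chromosomes. DNA copy number was not measured in these data, so its part in the shifts was not tested.

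**Figure D5:**
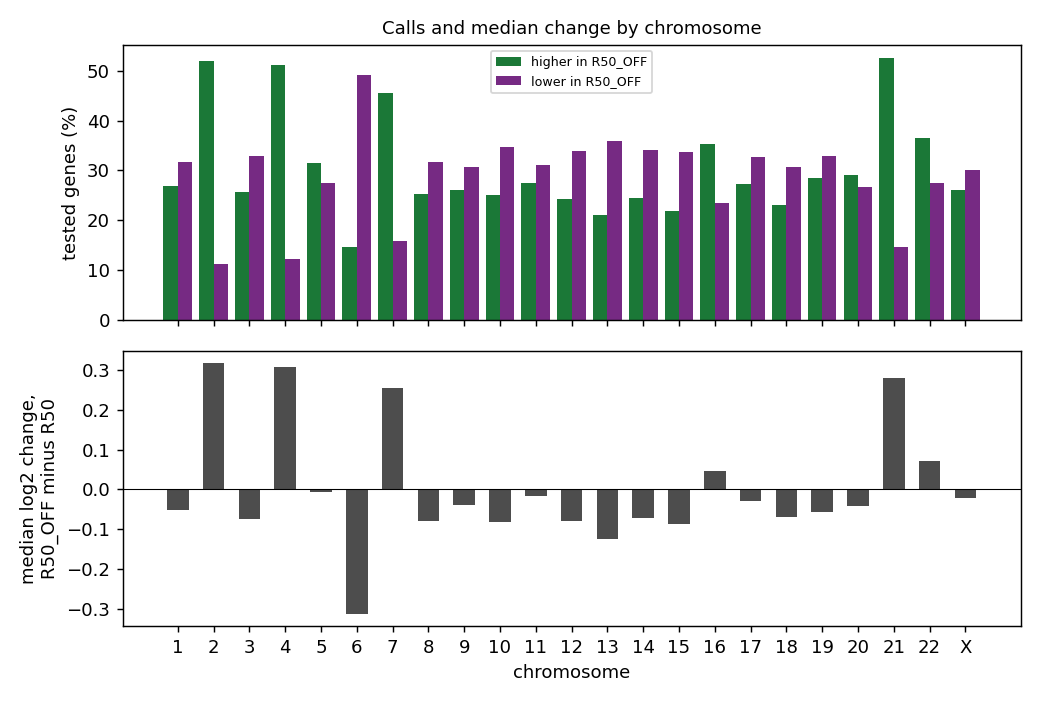
Share of tested genes (%) higher (green) and lower (purple) in R50_OFF by chromosome (upper panel), and the median log2 change of R50_OFF minus R50 (lower panel). Chromosomes 2, 4, 7 and 21 stand high, at 45.5% to 52.6% of genes higher, and chromosome 6 stands low, at 49.2% of genes lower.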

How the data were processed

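Polyadenylated RNA of 9 cultured-cell samples, 3 each of R50_OFF, R50 and parent, was sequenced as stranded single-end libraries, per the labels' protocols. Only bcl2fastq 2.17.1.14 and build hg38 are listed, with no role, per the submitters' processing notes. What aligned, counted and normalized the reads, on which strand and annotation, is not given in the sources used here. Per the file headers, the deposited values are a signal that the authors normalized and then scaled per kilobase of median transcript length. These are not counts, so limma 3.58.1 (R 4.3.3) was run on log2(value + 1) for the 16456 genes that reached 10 in 3 or more libraries. All 9 libraries entered the fit, with empirical Bayes variance trend, no block, a two-sided contrast of R50_OFF minus R50, and Benjamini-Hochberg adjustment over all tested genes at a threshold of 0.05. The fit was tested on simulated data. Gene symbols and positions are from GENCODE 44 (33137 of 33264 IDs matched), promoters from RefSeq (GRCh38.p14).

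Named genes are the 12 largest rises and 12 largest falls among called, non-overlapping genes at or above the median level of 351 in the higher line, the highest 6 per direction of those listed at 0 in one line, up to 5 members per list by absolute change, a short fixed set, and up to 3 genes per described window; the few others were chosen after their values were seen. Gene lists are described by counts and medians with no set test. The members and lists were chosen with earlier results of these data known. Alternatives were another pseudocount or filter, TMM and quantile scaling, the 6 libraries alone, array weights, a replicate block and leaving out each library. No 2 libraries of a line were identical; traced reads are not independent molecules, and they bear on precision only through counting error. A few members of the lists are not reported here by name.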

Additional observations from a re-analysis of the deposited data

How the results depend on the processing

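Counts of called genes stayed within 1.5 times of the reported ones under every alternative run, with 1 exception: a minimum value of 50 left 786 genes at least 2-fold higher and 784 at least 2-fold lower, with 12538 genes tested, where fewer weakly expressed genes are tested. Leaving out 1 library gave 4406 to 4940 higher and 4048 to 4425 lower genes, with 1071 to 1243 and 1043 to 1459 of at least 2-fold; the low end of the last range (1043 to 1098) came from leaving out an R50 library, where the filter then drops genes present in R50 alone. Same-numbered libraries of the lines did not deviate together (r of 0.036, 0.1 and 0.02), so the numbers were not taken as pairs; the replicate block gave 5070 higher and 4976 lower genes. Of 305 named genes tested, 294 were called, 279 of them under every alternative that tested them, and none of the 294 changed sign. Among those that lost their call under some alternative were ROR2, APOBEC3H and SYN1, with limma adjusted p up to 0.08284, 0.07346 and 0.1056. The medians of small lists were less firm. Under quantile scaling the median of collagens was -0.0119, of matrix glycoproteins -0.0387, of NRF2 targets -0.0929, of Wnt genes 0.0593 and of axon guidance genes 0.0686. A minimum of 50 gave 0.1642 for Wnt and 0.0688 for ATF4 targets, and glial and progenitor markers had 0.2405 with the 6 libraries alone and 0.2295 with array weights. Leaving out 1 library turned the median of checkpoint and translesion genes (-0.0789 without R50 replicate 3, up to 0.1528 without another), of neural adhesion genes (-0.0014 without R50_OFF replicate 1, up to 0.265) and of markers of other cell types (0.119 without R50 replicate 1, 0.1657 without R50 replicate 3, down to -0.73 without R50_OFF replicate 1). It also gave 0.1596 for mesenchymal and epithelial genes and 0.0771 for axon guidance (without R50 replicate 3), and for Wnt 0.0193 (without R50_OFF replicate 3) and 0.0258 (without R50 replicate 2). The 6 libraries alone gave -0.0093 for neural adhesion. Without chromosomes 2, 4, 6, 7 and 21, an alternative chosen after seeing the data, medians were 0.3693 for antigen presentation, 0.0246 for checkpoint and NKG2D ligands, -0.2116 for matrix glycoproteins, 0.0357 for Notch, -0.0141 for NRF2, -0.0305 for neural adhesion and 0.1536 for retinoid genes; the cause was not tested. Count tests in edgeR or DESeq2 were not run on the traced reads. Genes near the filter rest on few reads, and the lines are single clones.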

Other observations

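Developmental signalling and epithelial genes were called about as often as the 59.5% of all tested genes, or somewhat more, in both directions. Wnt ligands, receptors and antagonists were 8 higher and 8 lower of 24 tested: the ligand gene WNT5A read 6824, 7190 and 6848 in R50_OFF and 2742, 3252 and 2600 in R50 and rose by 1.29, WNT7B rose by 1.31, and WNT9A (-2.60), the receptor gene ROR2 (-2.45) and the inhibitor NKD1 (-2.17) fell. Notch genes were 3 higher and 5 lower of 11, with falls in the glycosyltransferase gene LFNG (-1.85), in NOTCH4 (-1.65) and in the target genes HEY2 (-1.33) and HEY1 (-1.11). Mesenchymal regulators and epithelial genes were 8 higher and 11 lower of 23. The mesenchymal transcription factor gene FOXC2 read 343, 333 and 393 in R50_OFF and 52.1, 69.3 and 67.2 in R50 and rose by 2.49, whereas the keratin gene KRT17 fell by 2.66. EPCAM, an epithelial adhesion gene, rose by 1.49 at a low level, with 24.5 to 35.9 in R50_OFF and 5.84 to 13.9 in R50.

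Cytosolic ribosomal protein genes were 10 higher and 3 lower of 24, with a median log2 change of 0.13 that turned to -0.03 under quantile scaling. Of 8 tested RNA and DNA editing enzymes, 2 were higher and 2 lower: besides ADARB2, the cytidine deaminase gene APOBEC3B rose by 0.28 and APOBEC3H fell by 1.24. The prolactin gene PRL, on chromosome 6, read 58, 57.9 and 77.7 in R50_OFF and 1462, 1196 and 1355 in R50, against 94.9 to 138 in the parent line, a log2 change of -4.36. Nearby, the lncRNA gene CASC15 read 151, 134 and 106 in R50_OFF and 2245, 2260 and 2177 in R50, a log2 change of -4.10, whereas CD83, a surface protein of activated immune cells, rose by 2.10.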
